A study of Mus musculus with 8 samples.

Results

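Mitochondria make few of their own proteins and take in nearly all the others from the cytosol through a chain of membrane complexes. The import machinery described here comprised 33 of the 22180 named genes on the array. Their symbols are numbered Tomm or Timm names or Samm50, Mtx1, Mtx2, Pam16, Grpel1, Grpel2, Pmpca, Pmpcb, Chchd4 or Gfer. Tomm and Timm genes are named after the TOM and TIM complexes, though not all encode their subunits. Members were picked by name, though with earlier results of these data known. Where a gene had several rows the one of highest mean was taken. Dnajc19, Tomm5 and Tomm6 lie only in rows shared with other genes and were left out of the tests, so the 33 do not include every import gene.

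The RNA was total RNA of whole pancreas of C57 BL6 mice, 6 days after tamoxifen (3 mg per 40 g of body weight, injected into the peritoneum). The 4 arrays labelled LmnaWT (WT) were compared with the 4 labelled LmnaKO (KO), and tamoxifen is named in the treatment of both groups. Each group held 3 males and 1 female, the female being replicate 4. Lmna encodes lamin A/C, a filament of the nuclear lamina, and the series title places its ablation in acinar cells, the enzyme-secreting cells of the pancreas. The sources used here give no Cre line, age or pooling of animals. P-values therefore measure the spread between these 8 samples. Lmna itself differed by -0.24 ± 0.15 log2 units (KO minus WT, ± SE, limma adjusted p = 0.264) on a dim row that may lie outside the deleted part, so it does not check the labels. The acinar carboxypeptidase Cpa1 read 11.97 to 12.37 and chymotrypsinogen Ctrb1 12.28 to 12.41 in all arrays, near the top of the scale (12.47).

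Most precursors enter through Tom40, the pore of the outer membrane, after docking on the receptors Tom20, Tom22 and Tom70. Those with a cleavable presequence pass on through Tim23 of the inner membrane, are pulled in by a motor built on mitochondrial Hsp70, and are trimmed by the matrix processing peptidase. Metabolite carriers are escorted by the small TIM chaperones to the Tim22 insertase, beta-barrel proteins are built into the outer membrane by the Sam50 complex, and small cysteine-rich proteins are trapped by the Mia40 and Erv1 disulfide relay. In acinar cells, mitochondria supply ATP for the synthesis and secretion of digestive enzymes.

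In KO pancreas 9 of the 33 import genes rose and 0 fell (limma, Benjamini-Hochberg adjusted p under 0.05 over all genes). They were Tomm40, Tomm70a, Tomm22, Tomm34, Timm23, Timm21, Timm9, Grpel1 and Pmpca, with rises of 1.48-fold to 3.03-fold. This is 27.3% of the members, against 14.6% of all genes called higher, 6.99% called lower and 21.6% called in either direction. Import genes lie at middle array levels, however, where many genes were higher in KO. Among genes within 0.25 log2 units of each member's mean level, an average of 30.2% were called higher (28.1% when matched on the WT mean), so the members' share lay near that of other genes of their level. The median difference of the 33 was 0.33 log2 units, against -0.06 over all genes and 0.43 for genes of the same levels. Each of the 9 called members lay above the median of its level, which follows largely from their being called on these same differences. Of the other 24 members only Mtx2, Samm50, Mtx1, Chchd4 and Timm22 did so, giving 14 of all 33.

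**Figure D1:**
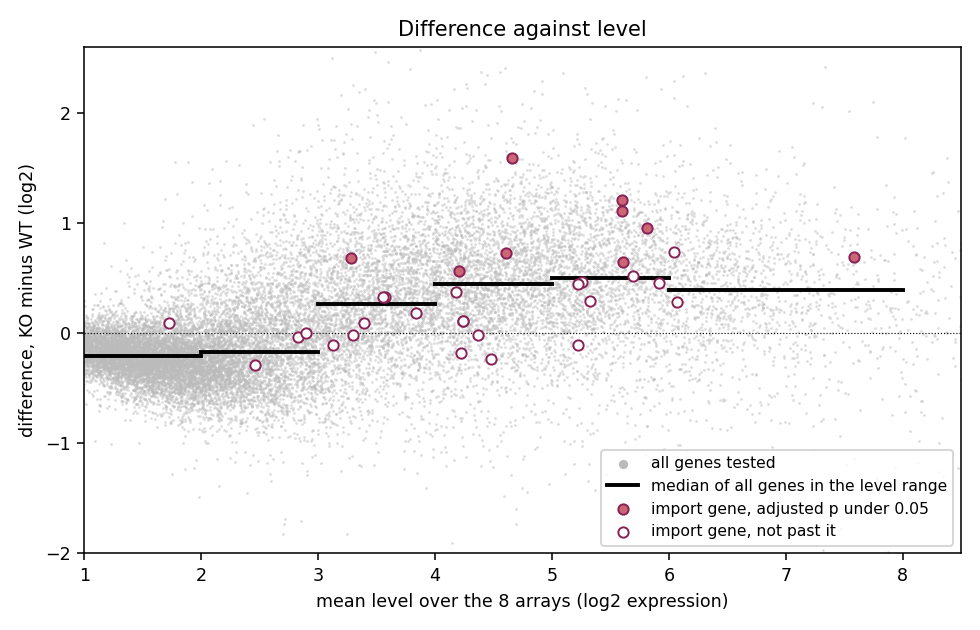
Difference between KO and WT (log2) against mean level over the 8 arrays (log2 expression) for all genes tested (grey) and the 33 import genes (filled where the adjusted p is under 0.05), with the axes limited to levels of 1 to 8.5. Black lines are medians of all genes in a level range, 0.45 at levels 4 to 5 and 0.50 at 5 to 6. The called import genes, picked by these same differences, lie above the lines, while many others lie near or below them.

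The count changed with the normalization. The values of KO arrays were more widely spread (interquartile range over genes 2.88 to 3.03 log2 units, against 2.11 to 2.48 in WT). After a second quantile normalization, which makes these spreads equal, the members' median was -0.03, 19 of the 33 differences lay below 0 (9 as deposited), and 2 members were called, Tomm40 and Tomm70a (4.65% of all genes were called higher). After cyclic loess the median was 0.01, 15 differences lay below 0, and 4 were called, Tomm40, Tomm70a, Timm21 and Timm9 (6.11% of all genes). All 9 members kept a difference above 0 under both. Among males only, with 3 arrays per genotype, Tomm40 and Tomm70a were the 2 called (3.47% of all genes were called higher). With the replicate number as a block 12 members were higher (16.7% of all genes).

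The 2 calls that held in all 18 alternatives belong to the entry gate of the outer membrane. For Tomm40, the beta-barrel pore, the WT arrays read 5.14, 4.96, 5.21 and 4.88 (replicates 1 to 4, the order used throughout) and the KO arrays 6.54, 5.98, 6.09 and 6.00. Every KO array lay above every WT array, and KO 1 was the highest. The rise was 1.11 ± 0.15 log2 units, or 2.16-fold (adjusted p = 0.00254), and it stayed called in each of the 18 alternatives, between 0.63 and 1.20. Tomm70a, the receptor that takes carrier precursors from cytosolic chaperones, read 5.53, 4.91, 5.52 and 5.38 in WT and 6.49, 6.22, 6.30 and 6.17 in KO. The groups did not overlap, and WT 2 was the lowest array. Its rise was 0.96 ± 0.16, or 1.95-fold (adjusted p = 0.00501), called in all 18 alternatives (0.50 to 1.05). The share of all genes whose 4 KO arrays lay above all 4 WT arrays was 15.3%, and of the import genes 11 did so (33.3%), the 9 called ones with Timm44 and Samm50. The 15.3% is not matched on level, and import genes lie at levels where more genes were called higher. The 2 shares are therefore not a like comparison.

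**Figure D2:**
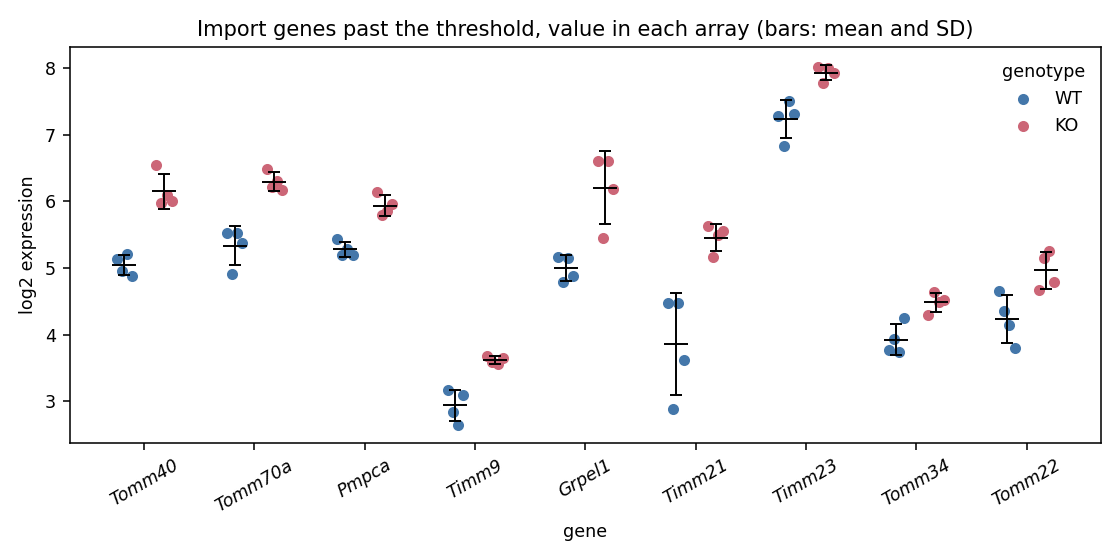
log2 expression of the 9 import genes past an adjusted p of 0.05, with 1 point per array (blue WT, red KO) and bars for the mean and SD of 4 arrays. The groups do not overlap in any of the 9, and Tomm22 has the narrowest gap, between WT 1 at 4.65 and KO 1 at 4.67.

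Of the other genes for docking on and delivery to the outer membrane, Tomm22 and Tomm34 rose. Tomm22, the central receptor that also organises the TOM complex, read 4.65, 4.36, 4.15 and 3.80 in WT and 4.67, 5.15, 5.25 and 4.79 in KO. WT 1 and KO 1 were almost level. The difference was 0.73 ± 0.20 (adjusted p = 0.0320), and its call was lost without WT 3, WT 4, KO 2, KO 3 or KO 4 and after both further normalizations (0.27 and 0.31). Tomm34, a cytosolic co-chaperone that binds Hsp70 and Hsp90 and takes part in precursor delivery, read 3.77, 3.93, 3.74 and 4.25 in WT and 4.30, 4.64, 4.49 and 4.52 in KO. WT 4 came within reach of KO 1. Its rise of 0.57 ± 0.14 (adjusted p = 0.0227) was lost without WT 3, KO 2, KO 3 or KO 4 and fell to 0.13 after the second quantile normalization. Tomm20, the presequence receptor, differed by 0.44 ± 0.23 (adjusted p = 0.184), and passed with the replicate number as a block (adjusted p = 0.0435). Its relative Tomm20l differed by -0.29 ± 0.14 (adjusted p = 0.143), and Tomm7, a small subunit that tunes the stability of TOM, by -0.23 ± 0.25 (adjusted p = 0.509).

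Of the genes for outer membrane assembly none passed. Samm50, the beta-barrel insertase, read 5.73, 4.83, 5.68 and 5.47 in WT and 6.14, 5.77, 5.80 and 6.10 in KO. The groups did not overlap, but WT 3 and WT 1 lay just under KO 2, and the difference of 0.53 ± 0.20 had an adjusted p of 0.0891. The metaxins, partners of Sam50, differed by 0.74 ± 0.27 (Mtx2, adjusted p = 0.0759) and 0.33 ± 0.13 (Mtx1, adjusted p = 0.0962). Mtx2 passed with the replicate block (adjusted p = 0.0277), with array weights (0.70), without WT 1 (0.96) and among genes with a mean of at least 4, and Mtx1 without KO 2 (0.44).

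In the presequence route of the inner membrane, Timm21 and Timm23 rose. Timm21, which ties the TIM23 complex to TOM and to the respiratory chain, read 4.47, 2.88, 4.47 and 3.62 in WT and 5.63, 5.16, 5.49 and 5.55 in KO. WT 2 and WT 4 were low and the WT arrays were the most scattered of any called member. The rise of 1.60 ± 0.32, or 3.03-fold (adjusted p = 0.0103), was the biggest of the 33 by size, and its call was lost after the second quantile normalization (1.25, adjusted p = 0.0539) and among males (1.49). Timm23, the channel itself, read 7.28, 6.83, 7.51 and 7.31 in WT and 8.02, 7.77, 8.0 and 7.92 in KO. Its difference was 0.70 ± 0.15, or 1.62-fold (adjusted p = 0.0145). That call was lost in the second quantile normalization (0.39) and in cyclic loess (0.37), with adjusted p of 0.0681 and 0.0602. Timm50, the presequence receptor of the inner membrane, differed by 0.38 ± 0.19 (adjusted p = 0.166). Timm17a and Timm17b, the alternative partners of Tim23, differed by 0.28 ± 0.14 (adjusted p = 0.158) and -0.11 ± 0.16 (adjusted p = 0.622).

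In the import motor, Grpel1, the nucleotide exchange factor that resets mitochondrial Hsp70, read 5.17, 4.79, 5.15 and 4.88 in WT and 6.60, 5.45, 6.60 and 6.18 in KO. KO 2 stood well below the other KO arrays but above all WT arrays. The rise was 1.21 ± 0.24, or 2.31-fold (adjusted p = 0.0102), and fell to 0.75 after the second quantile normalization (adjusted p = 0.0855) and 0.76 after cyclic loess (adjusted p = 0.0557). Its paralog Grpel2 differed by -0.02 ± 0.26 (adjusted p = 0.965). Timm44, which anchors Hsp70 to the channel, differed by 0.47 ± 0.18 (adjusted p = 0.0837), and Pam16, which restrains the J protein of the motor, by 0.11 ± 0.17 (adjusted p = 0.650). The processing peptidase is a dimer of Pmpca, which binds presequences, and Pmpcb, which cuts them. Pmpca read 5.44, 5.20, 5.29 and 5.20 in WT and 6.14, 5.79, 5.85 and 5.96 in KO. The 2 groups were tight and apart, with a difference of 0.65 ± 0.12 (1.57-fold, adjusted p = 0.00780), which was 0.16 after the second quantile normalization (adjusted p = 0.445) and 0.21 after cyclic loess (adjusted p = 0.300). Pmpcb differed by 0.46 ± 0.21 (adjusted p = 0.139) and passed with the replicate block (adjusted p = 0.0485) and without WT 1 (0.65).

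Beyond the receptor Tomm70a, the carrier route held 1 called gene among the 7 small TIM genes, with a median difference of 0.09 over the 7. An average of 21.4% of genes at their levels were called higher. Timm9, which forms a chaperone ring with Timm10, read 3.17, 2.84, 2.65 and 3.09 in WT and 3.68, 3.59, 3.56 and 3.65 in KO. The KO arrays lay close together above all WT arrays, a rise of 0.68 ± 0.14 (1.60-fold, adjusted p = 0.00959) that remained called after cyclic loess (0.54, adjusted p = 0.0332) and not after the second quantile normalization (0.51, adjusted p = 0.0767). Timm10 itself differed by -0.02 ± 0.14 (adjusted p = 0.938). The other small TIM genes, Timm8a1, Timm8a2, Timm8b, Timm10b and Timm13, differed by between -0.04 (Timm8a2) and 0.30 (Timm8b), with adjusted p of 0.200 and above. Timm22, the carrier insertase, read 1.59, 1.84, 1.71 and 1.56 in WT and 1.69, 1.77, 2.00 and 1.63 in KO. The groups overlapped at a low level (0.10 ± 0.13, adjusted p = 0.585), so little can be read from this row. Timm29, a subunit of the TIM22 complex, differed by -0.18 ± 0.20 (adjusted p = 0.516). Of the relay, Chchd4 (Mia40), the oxidoreductase, differed by 0.33 ± 0.16 (adjusted p = 0.159) and Gfer (Erv1), the sulfhydryl oxidase that recharges it, by -0.11 ± 0.13 (adjusted p = 0.540).

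**Figure D3:**
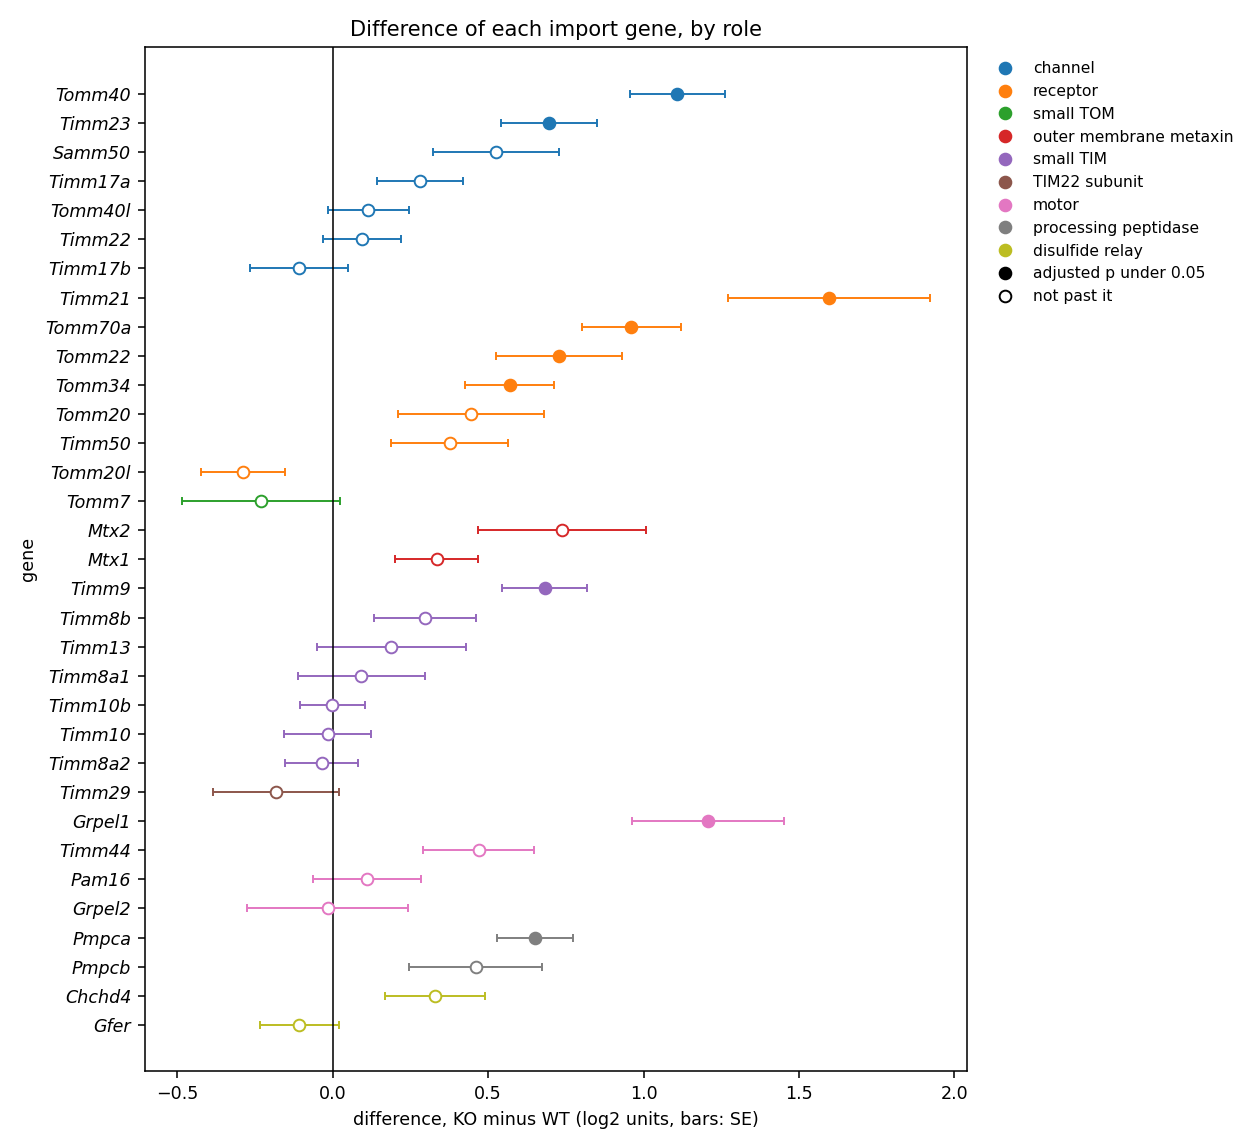
Difference between KO and WT (log2 units, bars SE, n = 4 per group) of each of the 33 import genes, coloured by role and filled where the adjusted p is under 0.05. The filled points run from 0.57 (Tomm34) to 1.60 (Timm21), and no gene left of 0 passed.

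Genes with several rows did not always give 1 answer. Of the 3 rows of Timm8a1 the one used differed by 0.09 ± 0.20. A second, of nearly the same level, differed by 1.29 ± 0.33 (adjusted p = 0.0238 in a fit of all rows), and the dimmest by 0.14 ± 0.28. The 2 rows of Timm10b differed by -0.00 ± 0.11 and -0.41 ± 0.17 (adjusted p = 0.0999). The sources used here do not say which row reads which transcript, so both genes are uncertain.

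Because a shift shared by a whole array cancels in a ratio, 7 pairs of related or partner members were compared within arrays. The pairs were added after the data were seen, with Tomm40, Grpel1 and Timm9 already called and their partners not. The p-values of these ratios are therefore not separate support for those calls. The ratio of Tomm40 to its paralog Tomm40l was 0.99 ± 0.07 log2 units higher in KO (± SE, exact two-sided permutation p = 0.0286, adjusted p = 0.0400 over the 7 pairs, KO above WT in all 4 against all 4 arrays). Tomm40l alone differed by 0.11 ± 0.13 (adjusted p = 0.526). The ratio of Grpel1 to Grpel2 was higher by 1.23 ± 0.33, that of Timm9 to Timm10 by 0.70 ± 0.15, and that of Timm17a to Timm17b by 0.39 ± 0.13, each with the same exact permutation p of 0.0286. The medians of other genes at the levels of these 4 pairs differ by 0.09, 0.09, -0.01 and -0.02. The ratio of Tomm20 to Tomm20l was also higher, by 0.73 ± 0.25 (exact permutation p = 0.0286), but medians of genes at their levels differ by 0.67, and the value was 0.15 after either further normalization. Within the peptidase, the ratio of Pmpca to Pmpcb differed by 0.19 ± 0.17 (exact permutation p = 0.371), and that of Mtx1 to Mtx2 by -0.40 ± 0.34 (exact permutation p = 0.343). The smallest exact p for 4 against 4 arrays is 0.0286, and with arrays paired by replicate number it would be 0.125, so no pair could then pass. The 5 pairs also missed the threshold without WT 2 or any 1 KO array (adjusted p of 0.0667 to 0.0800), Timm9 to Timm10 also without WT 3. The others of the 5 only equalled the threshold without WT 3 (exact permutation, adjusted p = 0.05). After the second quantile normalization or cyclic loess none of the 5 was under it. There all but Tomm20 to Tomm20l equalled it (exact permutation, adjusted p = 0.05). In that order of normalizations, the values were 0.96 and 0.92 for Tomm40 to Tomm40l and 1.21 and 1.17 for Grpel1 to Grpel2. They were 0.72 and 0.70 for Timm9 to Timm10 and 0.45 and 0.40 for Timm17a to Timm17b. Mtx1 to Mtx2 passed without WT 1 (-0.67, exact permutation, adjusted p = 0.0333).

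**Figure D4:**
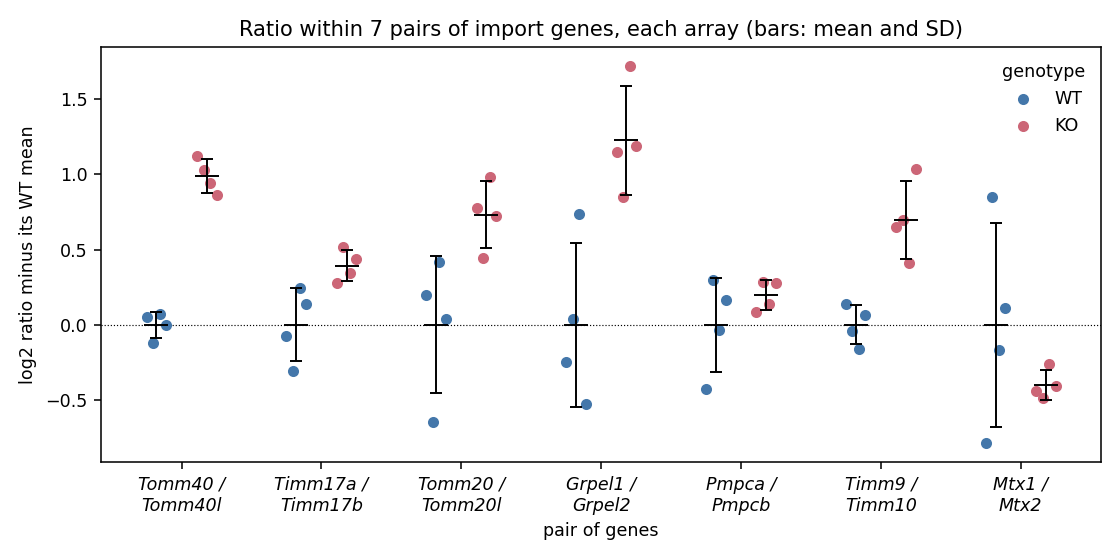
log2 ratio within 7 pairs of import genes in each array, minus its mean over the WT arrays (1 point per array, blue WT, red KO, bars mean and SD of 4 arrays). KO points lie above all WT points for 5 pairs, with Tomm40 over Tomm40l (0.99) the most clearly apart, and the groups overlap for Pmpca over Pmpcb and Mtx1 over Mtx2.

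Promoter sequences of RefSeq (GRCm38.p6, 250 bases before to 50 after the start) were at hand for 29 of the 33 members. They were searched on both strands for CCGGAAG, the core site of ETS factors such as GABP, a known regulator of mitochondrial genes. It was found in 14 of the 29 (48.3%), against 12.7% of all measured genes with a promoter, 22.7% of those at levels of 4 to 8, and 8.86% of all promoters. Of the 33 members 22 have a mean level of at least 4, so that range does not match them all. Of the called members 6 of 8 held it (Tomm70a, Pmpca, Grpel1, Timm23, Tomm34 and Tomm22, but not Tomm40 or Timm9), and of those not called 8 of 21. At levels of 4 to 8, 46.1% of all genes with the motif were called higher and 35.2% of those without it. Where a gene had several promoters, a match in any of them counted, and the stretch shown is from only one of them. Tomm34 also has matches 106 and 9 bases before a start, which its stretch does not show. The stretches of 100 bases below show where the motif, in capitals on either strand, stands before the start of these 6 genes, 5′ to 3′ along the gene.
Tomm70a: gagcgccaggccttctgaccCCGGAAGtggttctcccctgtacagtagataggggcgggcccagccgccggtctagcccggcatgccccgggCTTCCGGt
Tomm22: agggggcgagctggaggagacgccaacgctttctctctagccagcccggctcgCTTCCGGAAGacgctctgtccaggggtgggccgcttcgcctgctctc
Tomm34: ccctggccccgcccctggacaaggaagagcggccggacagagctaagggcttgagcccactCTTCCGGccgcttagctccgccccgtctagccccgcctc
Timm23: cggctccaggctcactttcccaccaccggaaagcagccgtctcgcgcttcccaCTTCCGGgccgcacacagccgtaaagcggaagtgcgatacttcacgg
Pmpca: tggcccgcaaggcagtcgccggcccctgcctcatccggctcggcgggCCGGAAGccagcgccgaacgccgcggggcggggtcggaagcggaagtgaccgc
Grpel1: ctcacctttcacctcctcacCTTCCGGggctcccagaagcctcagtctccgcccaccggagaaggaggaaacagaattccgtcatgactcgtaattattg

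These stretches lie at chr16:57121614-57121713 (plus strand, Tomm70a), chr15:79670768-79670867 (plus, Tomm22), chr2:164071170-164071269 (minus, Tomm34), chr14:32201892-32201991 (minus, Timm23), chr2:26389248-26389347 (plus, Pmpca) and chr5:36464961-36465060 (plus, Grpel1). In Tomm22 the motif overlaps its own reverse complement, giving a match on each strand, 47 and 44 bases before the start. In Tomm70a 2 separate matches begin 80 and 8 bases before it, and the Grpel1 match is far upstream, at 204 bases. Of the other motifs searched, the NRF1 core GCGCATGC was in 2 of the 29 (6.90%), Grpel1 (36 bases before the start) and Timm13, against 6.88% of genes at levels of 4 to 8, 4.06% of all measured genes with a promoter and 2.71% of all promoters. The YY1 site AAGATGGCG was also in 2 (6.90%), Mtx1 and Timm50, against 4.51%, 2.17% and 1.40%. With 2 matches each, neither share stands apart from that of genes at levels of 4 to 8, a range that leaves out some members, Timm13 and Mtx1 among them. The ATF4 and CHOP site TGATGCAA was in 0 of the 29, against 0.956%, 0.895% and 0.895%. A match is only these letters in this window, and binding was not measured.

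Around the import complexes, 16 of 49 measured genes of 5 related lists rose and 1 fell, with a median difference of 0.45 (an average of 31.0% of genes of the same levels were called higher). The 16 were 10 without WT 3, 7 without KO 4, 6 after cyclic loess, and 5 after the second quantile normalization and among males. With the replicate block 19 rose, Hspa8, Tfb1m, Cebpb and Oma1 being added and Hsp90aa1 lost. Of 15 partners of import, 6 rose, where an average of 30.2% of genes of the same levels were called higher. Cox18, an insertase of the inner membrane, rose by 0.95 ± 0.12 (adjusted p = 0.00204), the mitochondrial aminopeptidase Xpnpep3 by 1.15 ± 0.15 (adjusted p = 0.00210), and Hspa9, the mitochondrial Hsp70 at the heart of the motor, by 1.42 ± 0.22 (adjusted p = 0.00390). Hspa9 read 9.0, 7.87, 8.66 and 8.29 in WT and 10.07, 9.73, 9.91 and 9.78 in KO. These 3 kept their calls in each alternative that tested them, while the other 3 did not, and the count was 3 without KO 4. With the mean of its rows, however, Xpnpep3 differed by only 0.52 (limma adjusted p = 0.0292), so its size depends on the row used.

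Of 8 genes of the MICOS complex and its bridge to Sam50, 3 rose, where an average of 33.3% of genes of the same levels were called higher. Immt (mitofilin), the core of cristae junctions, rose by 1.05 ± 0.15 (adjusted p = 0.00260), Apool by 1.18 ± 0.28 (adjusted p = 0.0170) and Micos13 by 0.53 ± 0.13 (adjusted p = 0.0214), the last falling to 0.03 after the second quantile normalization and losing its call without WT 3, KO 1, KO 3 or KO 4. Of 7 cytosolic factors for precursors, Hsp90aa1 alone passed (0.48 ± 0.15, adjusted p = 0.0440), where an average of 29.8% of genes of the same levels were called higher. Hsp90aa1 did not pass with the replicate block (adjusted p = 0.0535) or without any 1 array but KO 2. Its direction turned after the second quantile normalization (-0.0037). Hspa8, the cytosolic Hsp70 that keeps precursors unfolded, differed by 0.59 ± 0.20 (adjusted p = 0.0584, 0.0228 with the block). With the mean of its rows the Hspa8 difference was 0.31 (limma adjusted p = 0.378).

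Of 11 regulators of mitochondrial gene expression 4 were called higher and 1 lower, where an average of 27.6% of genes of the same levels were called higher. Nrf1, a transcription factor for mitochondrial genes, rose by 0.76 ± 0.14 (adjusted p = 0.00724), and Gabpa, the DNA-binding subunit of GABP, by 0.65 ± 0.14 (adjusted p = 0.0117). Gabpa read 5.63, 5.19, 5.30 and 5.10 in WT and 6.01, 5.82, 6.01 and 6.00 in KO, and its difference was 0.17 after the second quantile normalization (adjusted p = 0.410). Tfam, which packs and transcribes mitochondrial DNA, rose by 1.15 ± 0.28 (adjusted p = 0.0210), with WT 1 (3.63) above KO 2 (3.55). Tfb1m, which methylates mitochondrial ribosomal RNA, differed by 1.02 ± 0.39 (adjusted p = 0.0855, 0.0249 with the block). Nrf1, Tfam and Apool lost their calls after the second quantile normalization (0.48, 0.99 and 0.74), Tfam also without WT 3 (1.05) or KO 4 (1.15), and Apool without KO 4 (1.12). The coactivator Ppargc1a was the 1 that fell (-0.49 ± 0.15, adjusted p = 0.0477), on a dim row (mean level 2.72). Its call was lost without WT 2, WT 4 or any of the KO arrays, with a sex term and among males. The call was also lost after each of the 3 further normalizations (limma adjusted p of 0.131 to 0.139) and with a trend and robust eBayes (adjusted p = 0.0567). Of 8 genes of mitochondrial stress signalling 2 were called higher, where an average of 35.6% of genes of the same levels were. Ddit3 (CHOP) rose by 4.64 ± 0.31 (adjusted p = 0.000298). Dele1, which relays mitochondrial stress to the kinase HRI, rose by 0.96 ± 0.26 (adjusted p = 0.0276). Dele1 was called in none of the further normalizations but median centring, and not without WT 2, WT 4, KO 1, KO 3 or KO 4. Atf5, a factor of the mitochondrial unfolded protein response, differed by 0.28 ± 0.17 (adjusted p = 0.232). The transcription factor Cebpb (0.95 ± 0.36, adjusted p = 0.0828) and Oma1, the inner membrane protease that cleaves Dele1 (0.79 ± 0.27, adjusted p = 0.0646), passed with the block (adjusted p of 0.0116 and 0.0416).

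Averaged over the 9 called members and centred on each gene's mean, the WT arrays read -0.26, -0.69, -0.36 and -0.51 and the KO arrays 0.57, 0.31, 0.52 and 0.42. Over the other 24 members the same averages were -0.04, -0.22, -0.02 and -0.04 in WT and 0.22, -0.13, 0.18 and 0.06 in KO. KO 2 sat below WT 1, WT 3 and WT 4 for the members that were not called, and WT 2 was the lowest array in both sets. Members were sorted into these sets by calls on the same arrays. The wider gap between genotypes in the 9 than in the 24 follows largely from that sorting. Without WT 2 the count of called members was 9 and the median 0.26.

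Bulk tissue cannot tell a change in the cells present from a change in RNA per cell. Of 8 measured acinar markers 3 fell (Amy2b, Bhlha15 and Rbpjl), and the mean level over all 8 was 9.87 to 10.04 in WT and 9.19 to 9.40 in KO. Of 6 macrophage markers 2 rose, Adgre1 and Cd68. The mean level over all 6 was 3.37 to 5.47 in WT and 4.94 to 6.87 in KO. All 6 rose with the replicate block (Csf1r, Itgam, Mrc1 and Cd14 being added, adjusted p of 0.00269 to 0.0137). Cd68 lost its call after cyclic loess, after the second quantile normalization, among males, and without WT 3, KO 2, KO 3 or KO 4. Adgre1 lost its call among males (limma adjusted p = 0.0509). Of 7 stellate markers 0 passed, with mean levels of 4.67 to 6.07 in WT and 5.02 to 6.98 in KO, and 4 rose with the block. These were the collagens Col1a1 (1.07 ± 0.54, adjusted p = 0.165, 0.00658 with the block), Col1a2 (1.24 ± 0.56, 0.127 and 0.00527) and Col3a1 (1.28 ± 0.54, 0.111 and 0.00187) and the receptor Pdgfrb (0.57 ± 0.22, 0.0908 and 0.0335). For ductal cells 1 of 5 markers rose and 1 fell, for beta cells 0 of 6 rose and 2 fell (Pdx1 and Mafa, the latter not with the block, adjusted p = 0.0563). Pdx1 and Mafa also lost their calls after the second quantile normalization, among males, and without any 1 array but WT 1 or KO 1. Mafa lost its call with a sex term as well. With and without the block 0 passed in the lists for other islet (4 measured), endothelial (5), neutrophil (5), T (5), B and plasma (4), adipocyte (4) and mitochondria-rich brown adipocyte cells (3, means of 1.67 to 1.80 in WT and 1.38 to 1.62 in KO). The part of these cell type differences in the import gene values was not tested.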

How the data were processed

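Total RNA was turned into biotin-labelled cDNA, per the labels' protocols, and the submitters' processing notes name oligo, RMA and limma, with no versions. The authors' deposited table holds 41345 rows for 8 arrays, and its values (0.044 to 12.47) were taken as log2 from their range, the base being unstated. The sources used here give no background signal, array build or scan batch, and the number of arrays limits the precision. Rows were named through the platform annotation, which gave 1 symbol to 23521 rows, several to 1814 and none to 16010. The row of highest mean was kept for 1082 genes in several rows. All 33 members matched a RefSeq symbol (GRCm38.p6).

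Genotype was tested with limma 3.58.1 (lmFit, eBayes) in R 4.3.3 on 22180 genes and 8 arrays, with p-values adjusted by Benjamini-Hochberg over the whole table and called under 0.05, after a test on simulated data. Values in every array are given for members past the threshold and for Tomm40, Timm22, Timm23, Samm50, Hspa9 and Gabpa. Of each related list up to 3 called genes are named by smallest p. Ppargc1a, Atf5 and genes whose call the replicate block changes were named after their values were seen. The members and lists were chosen with earlier results of these data known. Same-numbered arrays deviated together, with correlations across genes of 0.26, 0.17, 0.11 and 0.14 (replicates 1 to 4). Between arrays of unlike number the correlations ran from -0.21 to 0.12. The highest of these, WT 4 with KO 2, exceeded that of WT 3 with KO 3. Replicate 4 is also the female of each group, and whether its correlation reflects sex was not tested. Pairing by replicate number is thus uncertain, and the main fit is unpaired. A fit with the replicate number as a block is given where it changes the call of a named gene or list. The alternatives were this block, a sex term, the males alone, leaving out each array, 3 further normalizations, a trend with robust eBayes, array weights, a filter at a mean of 4 and the mean of a gene's rows. The pair ratios, level matching and fit of all rows were added after seeing the data.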

Additional observations from a re-analysis of the deposited data

Results flagged for a closer look

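In 3 cases of the 66 groups of 4 arrays examined (33 genes in 2 genotypes), 1 array stood apart from the other 3 by a gap past Dixon's critical value, which chance gives in about 1 of 20 groups. Timm44 read 4.48 in WT 2 against 5.14 to 5.23 in the other WT arrays. Gfer read 3.00 in WT 2 against 3.22 to 3.26. Mtx1 read 3.41 in KO 2 against 3.82 to 3.87 in the other KO arrays. None of these 3 genes was called in the comparison of all arrays.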

How the results depend on the processing

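The count of import genes lower in KO was 0 in all 18 alternatives. The count of those higher, 9, was 4 after cyclic loess, 2 after a second quantile normalization and 2 in males only, and 7 to 11 when 1 array was left out. With the replicate block 12 were higher, Mtx2, Pmpcb and Tomm20 being added, and of the related lists 19 of 49 (Hsp90aa1 lost, Hspa8, Tfb1m, Cebpb and Oma1 added). The block also added 4 macrophage and 4 stellate markers and lost Mafa, and changed no other call among the genes tested in these lists. Their median difference (0.33) was 0.0137 after cyclic loess, -0.0306 after the second quantile normalization and 0.46 among genes with a mean of at least 4. The 6 import partners numbered 3 after either of these 2 normalizations and in males only, and 3 to 7 with 1 array left out. Over all genes, the 4792 calls became 2617 after cyclic loess, 2288 after the second quantile normalization, 915 in males only, 2834 with the filter on level (which tests fewer genes), 5046 with the replicate block, and 2240 to 6070 with 1 array left out, the lowest without KO 4. Hsp90aa1 turned in direction after the second quantile normalization (-0.0037). Males only leaves 3 arrays per genotype. The cause of the other changes was not tested. Signal over background is unknown, so dim rows such as Timm22 may hide a change.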
